A study of Rattus norvegicus with 20 samples.

Results

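Immediate early genes were described in the heart ventricles of 20 rats. The set was defined as 6 genes by Ensembl ID: Fos (ENSRNOG00000008015), Egr1 (ENSRNOG00000019422), Jun (ENSRNOG00000026293), Junb (ENSRNOG00000042838), Atf3 (ENSRNOG00000003745) and Myc (ENSRNOG00000004500). Of the 6 IDs, 5 had a row among the 24059 in the count table, and the ID of Junb had none, so Junb was not analysed here. All 5 genes with a row passed the filter on low counts and were among the 14293 genes tested. The symbols come from the definition of the set, since the table lists IDs without names.

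Ventricular RNA was sequenced from 20 male Sprague Dawley rats, 1 library per rat. There were 5 WT and 5 Vegfb KO rats without diabetes, the control groups, and 5 rats of each genotype with diabetes. The latter had been given an intravenous injection of streptozotocin (STZ, 55 mg/kg), a toxin that destroys the insulin-producing beta cells, and tissue was taken on day 4 of diabetes. Rats were labelled as 9 weeks old, and littermates served as controls. Vegfb encodes a growth factor of the VEGF family, and Vegfb KO rats lack it in every tissue, because a lacZ cassette was inserted into the gene with zinc-finger nucleases. The knockout is therefore neither heart-specific nor inducible, and a ventricle holds cardiomyocytes together with vascular, connective tissue and blood cells. In such bulk RNA, fewer cells of a type and less RNA per cell cannot be told apart.

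Immediate early genes are transcribed within minutes of a stimulus without new protein synthesis, and their mRNAs are short-lived, so that their levels follow recent stimulation. Growth factor and stress signals reach Fos and Egr1 largely through serum response factor (SRF) and its partners, which bind a DNA element called the CArG box. Fos and Jun proteins pair to form the transcription factor AP-1, Atf3 is a stress-induced factor of the ATF/CREB family, Egr1 is a zinc-finger factor, and Myc drives growth and ribosome production. In the heart they are known as early markers of haemodynamic load, ischaemia and hypertrophic signalling.

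The total count per library ranged from 7220469 to 26664479, with a median of 20746736. Vegfb KO diabetic replicate 1 and WT control replicate 2 were the shallowest, with 7220469 and 7314287 counts. A pair of libraries stood apart in composition. The ID ENSRNOG00000065867 held 23.4% of all counts of WT diabetic replicate 2. It held 25.5% of those of Vegfb KO diabetic replicate 1, against 0.114% to 5.28% in the other 18 libraries. Their TMM factors, which scale library sizes for composition, were 0.729 and 0.694. Several values of Fos and Jun, and the calls of Myc, are also given without them. As a check of the genotype labels in diabetic rats, the ID with the largest fall among controls, ENSRNOG00000021156, was read out. It had 99.7 to 124 CPM (counts scaled to a common library size) in the 5 WT diabetic rats and 0 to 0.599 CPM in the 5 Vegfb KO diabetic rats. The controls, which chose the ID, had 132 to 145 CPM in WT and 0.119 to 1.26 CPM in Vegfb KO and are no independent check. The table does not pair this ID with a name, so the count of Vegfb itself was not checked.

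Values below are TMM-normalised CPM, listed in the order of replicates 1 to 5. The levels of different genes are not compared with each other.

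Fos counts ran from 24 to 611 per library, which gives a counting error of 20.4% at the lowest count. In WT controls Fos was at 6.78, 6.38, 3.84, 21.6 and 11.8 CPM. In WT diabetic hearts it was at 17.9, 12.7, 5.85, 1.61 and 5.41 CPM. Replicate 4 was the highest WT control and replicate 4 the lowest WT diabetic rat, and the groups overlapped almost fully. In Vegfb KO controls Fos was at 7.34, 5.41, 1.12, 7.22 and 3.00 CPM. In Vegfb KO diabetic hearts it was at 30.6, 6.18, 3.18, 5.03 and 1.60 CPM. Replicate 1 of this group, the shallow library with the unusual composition, held the highest Fos value of the 20 rats, and the other 4 diabetic Vegfb KO rats lay within the range of their controls. By mean, the order was WT control (10.1 ± 7.04 CPM, SD, n = 5), Vegfb KO diabetic (9.31 ± 12.0), WT diabetic (8.69 ± 6.51) and Vegfb KO control (4.82 ± 2.72). Every group overlapped its neighbour in this order.

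Egr1, the zinc-finger factor, was at 11.6, 12.6, 12.2, 38.4 and 20.3 CPM in WT controls. In WT diabetic hearts it was at 21.6, 14.1, 11.8, 3.83 and 9.03 CPM. The rats that stood out were those of Fos: WT control replicate 4 was highest and WT diabetic replicate 4 lowest. In Vegfb KO controls Egr1 was at 12.4, 13.9, 7.65, 13.4 and 10.03 CPM. In Vegfb KO diabetic hearts it was at 18.8, 18.9, 6.78, 7.83 and 5.86 CPM. Vegfb KO diabetic replicates 1 and 2 lay above all 5 Vegfb KO controls, and replicates 3 and 5 lay below them. The order of means was WT control (19.0 ± 11.4 CPM), WT diabetic (12.1 ± 6.58), Vegfb KO diabetic (11.6 ± 6.63) and Vegfb KO control (11.47 ± 2.60), with every group overlapping its neighbour.

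Of the 6 genes, 2 had a promoter in the RefSeq table used here (build GRCr8), Egr1 and Junb. Promoters of Fos, Jun, Atf3 and Myc were not in it. The Junb promoter, not shown, held 0 CArG boxes and 1 match to TATAAA. The Egr1 promoter is shown because Egr1 varied together with Fos between rats. It spans chr18:26736828-26737127 on the + strand, 250 bases before to 50 after the start of the gene, and capitals mark the CArG boxes.
Egr1 promoter: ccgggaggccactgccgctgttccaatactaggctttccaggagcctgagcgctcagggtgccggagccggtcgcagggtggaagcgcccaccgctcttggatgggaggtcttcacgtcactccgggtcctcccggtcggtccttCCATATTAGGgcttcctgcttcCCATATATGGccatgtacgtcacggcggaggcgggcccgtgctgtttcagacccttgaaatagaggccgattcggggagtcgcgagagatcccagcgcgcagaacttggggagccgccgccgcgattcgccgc
The CArG boxes lay at bases -105 to -96 and -83 to -74 from the gene start, and their sequences were CCATATTAGG and CCATATATGG. Both strands were searched, and a CArG box occurred in 548 of 33469 promoters of this length (1.64%). The Egr1 window held no TGACGTCA, the cyclic AMP response element (1.83% of promoters), and no TGANTCA, a pattern that includes the AP-1 site (7.33%). It also held no GCGTGGGCG, the Egr1 site (0.544%), no CACGTG, the E-box bound by Myc (6.42%), and no TATAAA (14.2%). A match describes the letters in the window and is not a measured binding site. Its part in the levels of Fos and Egr1 was not tested.

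Jun, the AP-1 partner of Fos, was the gene of the set with the smallest spread between rats. Its CPM values were 76.2, 70.2, 68.6, 72.6 and 101 in WT controls. In WT diabetic hearts they were 101, 96.6, 68.4, 84.0 and 94.4. WT control replicate 5 lay far above the other 4 controls, and WT diabetic replicate 3 lay just below the lowest control. In Vegfb KO controls Jun was at 50.03, 69.9, 50.02, 57.6 and 65.4 CPM. In Vegfb KO diabetic hearts it was at 75.9, 83.2, 76.5, 67.2 and 63.8 CPM. Among controls, 4 of 5 Vegfb KO rats lay below the lowest WT rat, and replicate 2 was the exception. The order of means was WT diabetic (88.9 ± 13.1 CPM), WT control (77.8 ± 13.4), Vegfb KO diabetic (73.4 ± 7.79) and Vegfb KO control (58.6 ± 8.95), and neighbours in this order overlapped.

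Atf3, the stress-induced factor, was counted 14 to 248 times per library, so that its lowest count carried a counting error of 26.7%. It was at 2.40, 3.06, 3.01, 8.62 and 10.6 CPM in WT controls. In WT diabetic hearts it was at 9.01, 3.896, 2.74, 3.02 and 5.10 CPM. WT control replicates 4 and 5 and WT diabetic replicate 1 were high, and the other 7 WT rats lay between 2.40 and 5.10 CPM. In Vegfb KO controls it was at 1.95, 2.58, 2.29, 2.46 and 2.21 CPM. In Vegfb KO diabetic hearts it was at 2.80, 6.13, 1.89, 1.11 and 2.00 CPM. The 5 Vegfb KO controls lay close together, with none above 2.58 CPM, and diabetic Vegfb KO replicates 1 and 2 lay above them, replicate 1 only slightly, while replicates 3 and 4 lay below the lowest control. The order of means was WT control (5.54 ± 3.79 CPM), WT diabetic (4.75 ± 2.55), Vegfb KO diabetic (2.79 ± 1.96) and Vegfb KO control (2.30 ± 0.242), again with overlap between neighbours.

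Myc, the growth factor-induced regulator of ribosome production, was counted 20 to 221 times per library. It was at 2.32, 2.66, 3.84, 3.04 and 3.97 CPM in WT controls. In WT diabetic hearts it was at 3.48, 5.22, 3.44, 8.90 and 9.42 CPM. All 5 WT diabetic rats lay above the mean of the WT controls and 3 of 5 above the highest control, so the groups overlapped at replicates 1 and 3. In Vegfb KO controls Myc was at 2.58, 3.895, 1.77, 2.501 and 2.52 CPM. In Vegfb KO diabetic hearts it was at 4.79, 5.77, 5.54, 3.20 and 3.55 CPM. Again all 5 diabetic rats lay above the control mean and 3 of 5 above the highest control. The order of means was WT diabetic (6.09 ± 2.90 CPM), Vegfb KO diabetic (4.57 ± 1.16), WT control (3.17 ± 0.723) and Vegfb KO control (2.65 ± 0.769). By mean, both diabetic groups stood above both control groups, with overlap between neighbours.

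**Figure D1:**
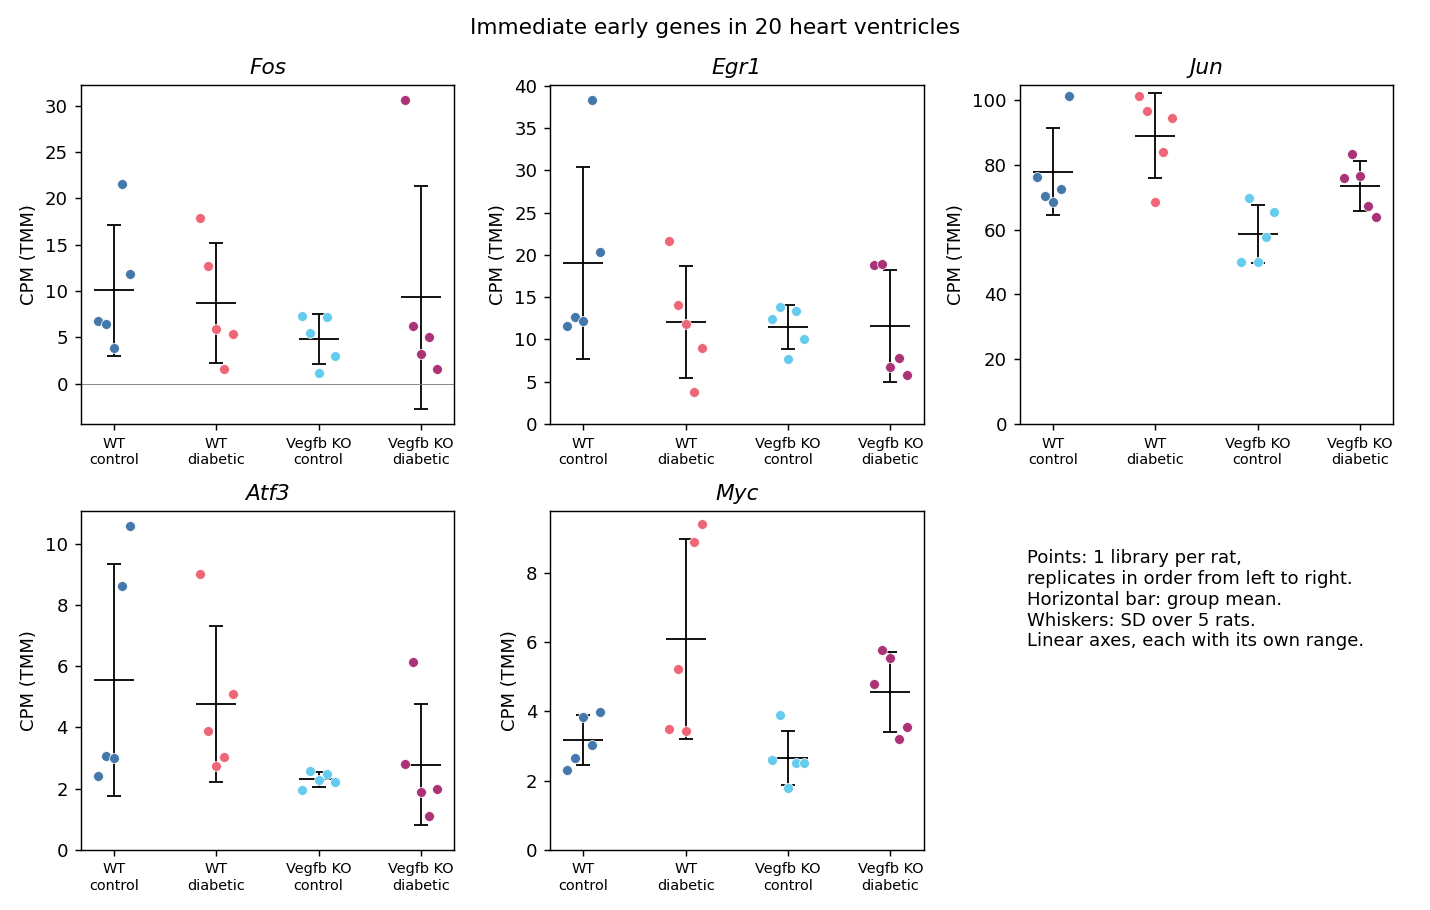
TMM-normalised CPM of the 5 genes (vertical axes, linear, each with its own range) in the 4 groups (horizontal axes); points are single rats in the order of their replicate numbers, bars are means and whiskers SD over 5 rats. Myc was higher in diabetic groups, at 6.09 and 4.57 CPM against 3.17 and 2.65 CPM in controls, and the highest Fos value was 30.6 CPM in Vegfb KO diabetic replicate 1.

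The first question was which of the genes differed with diabetes. Differences are log2 fold changes from edgeR's quasi-likelihood fit of all 20 libraries, with a Benjamini-Hochberg adjusted p over 14293 genes. To be called, a gene needed an adjusted p under 0.05 together with a log2 fold change beyond 0.27 in either direction. In WT hearts 1 of 5 immediate early genes was called, beside 13.1% of all genes tested (1876 genes). Myc rose with a log2 fold change of 0.95 (SE 0.27, adjusted p = 0.0231 in edgeR), a fold of 1.93. The call was lost when any of 5 single libraries was left out. Without WT control replicates 1, 2 or 4 the adjusted p in edgeR was 0.068, 0.0521 and 0.0517, and without WT diabetic replicates 4 or 5 it was 0.0822 each time. The log2 fold change stayed between 0.73 and 1.11 over the 20 libraries left out in turn. Without both libraries of unusual composition Myc was at 0.99 (adjusted p = 0.0339 in edgeR). A fit of only the 10 WT libraries gave an edgeR adjusted p of 0.0582, and the adjusted p ranged from 0.00532 to 0.0822 over all alternatives, DESeq2 included.

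The other 4 genes did not pass the test in WT hearts. The log2 fold change was -0.71 for Egr1 (95% interval -1.67 to 0.24), -0.30 for Fos (-1.85 to 1.26), -0.28 for Atf3 (-1.23 to 0.66) and 0.19 for Jun (-0.06 to 0.44). The signs of Fos and Atf3 turned without a single control: Fos was at 0.21 without WT control replicate 4, and Atf3 at 0.09 without WT control replicate 5. Egr1 was at -0.27 without WT control replicate 4, and Jun at 0.30 without WT control replicate 5, still not called. Fos was at -0.49 without both libraries of unusual composition. The median of the 5 genes was -0.28, the value of Atf3 that turned without WT control replicate 5, against 0.01 over all genes tested.

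In Vegfb KO hearts 0 of 5 genes were called in edgeR with diabetes, beside 7.84% of all genes (1121 genes). DESeq2 also called 0 of 5, beside 1322 of all genes. At an unadjusted p under 0.05 in edgeR there were 2 of 5, beside 21.4% of all genes (3060 genes). These 2 were Myc, with a log2 fold change of 0.79 (SE 0.28, adjusted p = 0.0931 in edgeR), and Jun, with 0.32 (SE 0.12, adjusted p = 0.11 in edgeR). For both genes all 5 diabetic rats lay above the control mean and 3 of 5 above the highest control. A fit of only the 10 Vegfb KO libraries called Myc, with an edgeR adjusted p of 0.0362 (range over all alternatives 0.0362 to 0.237). Fos had a log2 fold change of 0.67 (95% interval -1.03 to 2.37) that came from Vegfb KO diabetic replicate 1, since it was -0.27 without that library. Atf3 was at 0.29, or -0.32 without Vegfb KO diabetic replicate 2, and Egr1 at -0.04. The median of the 5 genes was 0.32, against 0.01 over all genes.

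Averaged over both genotypes, 1 of 5 genes was called, beside 16.2% of all genes (2317 genes). Myc rose by a log2 fold change of 0.87 (SE 0.20, adjusted p = 0.00242 in edgeR), a fold of 1.82. It passed in each of the 8 other settings and with each of the 20 libraries left out, with log2 fold changes of 0.76 to 0.99. Without both libraries of unusual composition it was at 0.88 (adjusted p = 0.00559 in edgeR). Jun had a log2 fold change of 0.26 (SE 0.09, adjusted p = 0.0326 in edgeR), just under the 0.27 required, and was not called. It crossed that line without any of 7 libraries, at 0.27 to 0.31: WT control replicate 5, WT diabetic replicates 3 and 4, Vegfb KO control replicates 2 and 5, and Vegfb KO diabetic replicates 4 and 5. Without both libraries of unusual composition the adjusted p of Jun in edgeR was 0.0885. Egr1 was at -0.38 (-0.16 without WT control replicate 4), Fos at 0.19 and Atf3 at 0.00, and none of them passed. Fos was at -0.39 without both libraries of unusual composition.

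The next question was whether the genes differed between genotypes. In control rats all 5 had lower fitted levels in Vegfb KO than in WT hearts, and 0 of 5 were called in edgeR, beside 0.028% of all genes (4 genes). DESeq2 called 0 of 5, beside 5 of all genes. At an unadjusted p under 0.05 in edgeR there were 2 of 5, beside 3.69% of all genes (527 genes). These 2 were Jun, with a log2 fold change of -0.41 (SE 0.12, unadjusted p = 0.0025, adjusted p = 0.875 in edgeR), and Atf3, with -1.30 (SE 0.47, unadjusted p = 0.0122, adjusted p = 1 in edgeR). For Jun, Atf3, Fos and Egr1 all 5 Vegfb KO controls lay below the WT mean, while their ranges overlapped the WT range. The differences of Fos (-1.11, 95% interval -2.70 to 0.49), Egr1 (-0.76, -1.71 to 0.19) and Myc (-0.27, -0.86 to 0.32) were smaller than the spread between rats could resolve. Without WT control replicate 4, Fos was at -0.60 and Egr1 at -0.32. Myc was at -0.44 without Vegfb KO control replicate 2 and at -0.15 without replicate 3. The median of the 5 was -0.76, the value of Egr1 that moved to -0.32 without WT control replicate 4, against 0.00 over all genes. This comparison shares its control rats with those of diabetes, so the lower Vegfb KO controls enter both.

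In diabetic rats the fitted differences between Vegfb KO and WT were again below 0 for all 5 genes, and 0 of 5 were called in edgeR, beside 0.042% of all genes (6 genes). DESeq2 called 0 of 5, beside 67 of all genes. At an unadjusted p under 0.05 in edgeR there was 1 of 5, Jun, beside 8.99% of all genes (1285 genes). Jun had a log2 fold change of -0.28 (SE 0.12, unadjusted p = 0.0319, adjusted p = 0.515 in edgeR), with all 5 Vegfb KO rats below the WT mean. Without both libraries of unusual composition Jun was at -0.26. There, 0 of 5 genes had an unadjusted p under 0.05 in edgeR, beside 1494 of 14375 genes. With counts thinned to the smallest total, 2 of 5 had one, beside 1164 of 12706 genes. Atf3 was at -0.73 (95% interval -1.73 to 0.27), or -1.34 without Vegfb KO diabetic replicate 2 and -0.38 without WT diabetic replicate 1. Myc was at -0.43 (-0.99 to 0.14; -0.22 without WT diabetic replicate 5), Fos at -0.14 (-1.80 to 1.52) and Egr1 at -0.09 (-1.08 to 0.90). The sign of Fos and of Egr1 was not stable. With counts thinned to the smallest total Fos was at 0.09 and Egr1 at 0.04, and DESeq2 gave 0.08 for Fos. By mean CPM, too, Fos was higher in Vegfb KO diabetic (9.31) than in WT diabetic hearts (8.69). In the other direction, Fos was at -0.90 without both libraries of unusual composition and at -1.09 without Vegfb KO diabetic replicate 1 alone. The median of the 5 genes was -0.28, the value of Jun, against 0.00 over all genes. Without both libraries of unusual composition the middle value was that of Myc, at -0.49.

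After these values were seen, the genotype difference averaged over both treatments was added. It called 0 of 5 genes in edgeR, beside 0.126% of all genes (18 genes), and DESeq2 called 1 of 5, beside 56 of all genes. At an unadjusted p under 0.05 there were 2 of 5 in edgeR, beside 7.93% of all genes (1133 genes). Jun was at -0.34 (SE 0.09, unadjusted p = 0.000537, adjusted p = 0.144 in edgeR), which placed it at rank 53 of 14293 genes by p. DESeq2 gave Jun an adjusted p of 0.0305, and edgeR without WT diabetic replicate 3 gave 0.0261, in a range of 0.0261 to 0.314 over all alternatives. Atf3 was at -1.02 (SE 0.33, unadjusted p = 0.00701, adjusted p = 0.433 in edgeR).

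For the interaction, the difference between the diabetes responses of Vegfb KO and WT, edgeR called 0 of 5 immediate early genes and 0% of all genes (0 of 14293) at an adjusted p under 0.05. DESeq2 called 0 of 5, beside 0 of all genes. At an unadjusted p under 0.05 in edgeR there were 0 of 5, beside 4.2% of all genes (600 genes). The log2 difference for Myc was -0.16 (95% interval -0.98 to 0.66), so a difference between genotypes in the Myc response was not shown, and the interval does not exclude one. For Fos it was 0.96 (-1.34 to 3.27), and 0.02 without Vegfb KO diabetic replicate 1.

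**Figure D2:**
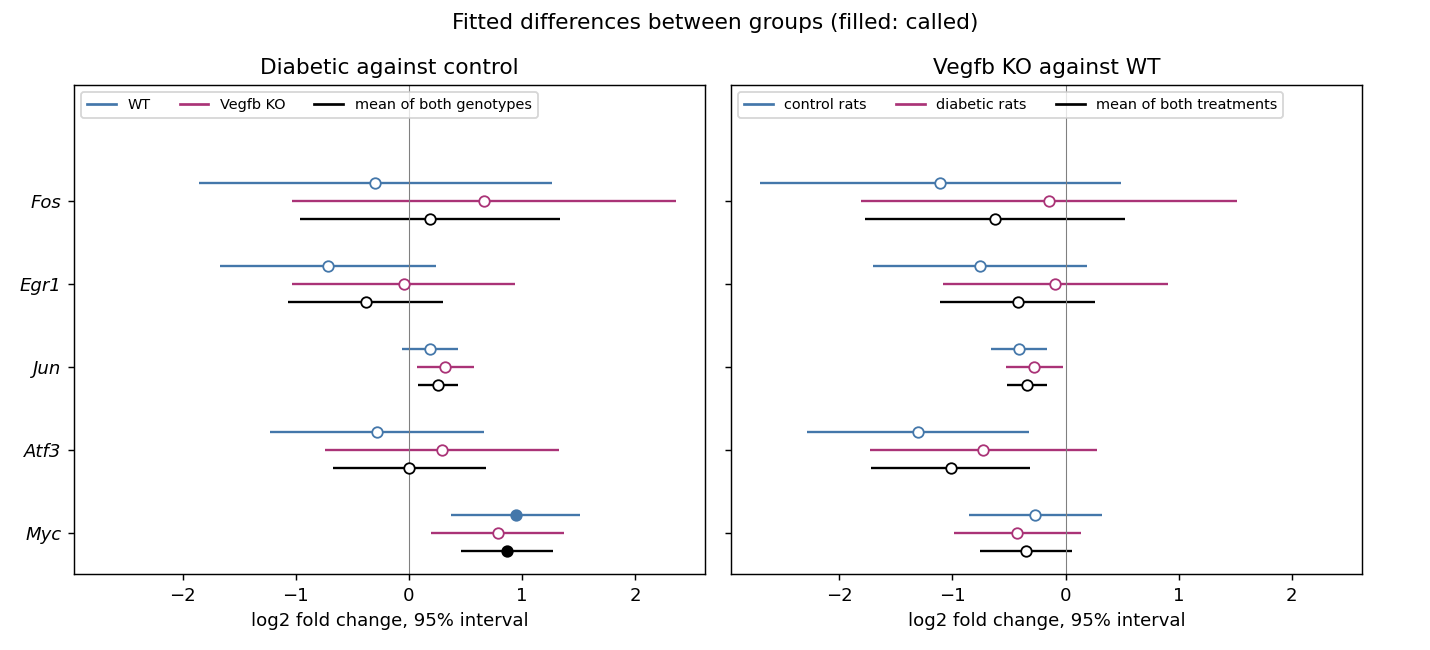
Log2 fold changes (horizontal axes) with 95% intervals for diabetic against control and for Vegfb KO against WT; filled points were called. Only Myc was called, at 0.95 in WT and 0.87 averaged over genotypes, and the Jun intervals are the narrowest.

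The spread between rats was measured as the SD of log2 CPM within groups. It was 1.25 for Fos, 0.736 for Egr1, 0.736 for Atf3, 0.467 for Myc and 0.209 for Jun, beside a median of 0.21 over all genes tested. Of 14293 genes, 119 had a larger spread than Fos, which lay at the 99.2 percentile. With a prior count of 0.5 in place of 2, 262 genes had a larger spread, and Fos lay at the 98.2 percentile. Egr1 and Atf3 lay at the 94.8 percentile, Myc at 83.9 and Jun at 49.8. Against the 500 genes nearest in mean log2 CPM, the percentiles were 100 for Fos, 99.6 for Egr1, 96.4 for Atf3, 89.0 for Myc and 84.4 for Jun. Without both libraries of unusual composition the SD of Fos was 1.08, at the 99.0 percentile. The highest Fos value was 5.62 to 11.1 times the lowest in 3 of the groups. In Vegfb KO diabetic hearts it was 19.1 times the lowest, or 3.87 times without replicate 1.

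**Figure D3:**
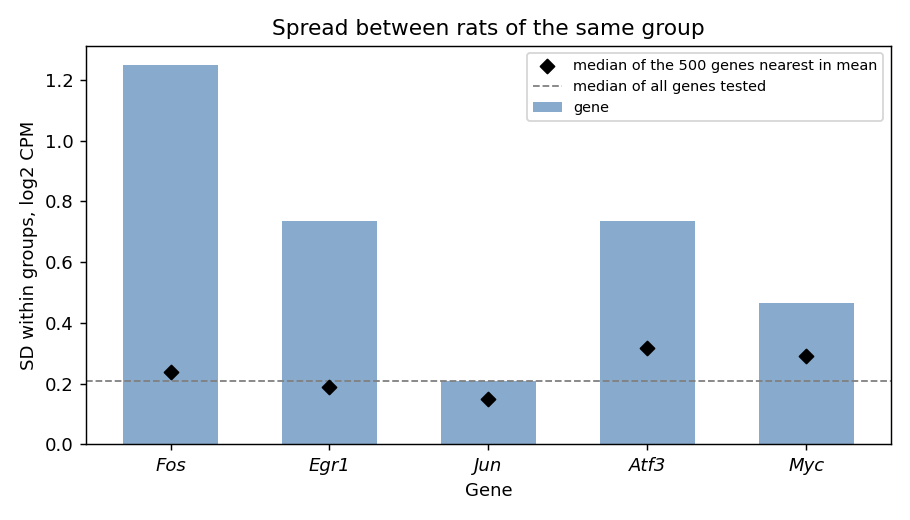
SD of log2 CPM between rats of the same group (vertical axis, from 0) for the 5 genes, with the median of the 500 genes nearest in mean as diamonds and the median of all genes tested as a dashed line. Fos varied most, with an SD of 1.25, and Jun at 0.209 lay at the median of 0.21.

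Each rat was then set against the mean of its own group, which removes differences between groups. In 4 rats all 5 genes lay above their group means: WT control replicate 5, Vegfb KO control replicate 2, and Vegfb KO diabetic replicates 1 and 2. In 5 rats all 5 genes lay below: WT control replicates 1 and 2, Vegfb KO control replicate 3, and Vegfb KO diabetic replicates 4 and 5. Atf3 in Vegfb KO control replicate 3 was practically at its group mean, with a deviation of -0.00065 log2 units. No WT diabetic rat was of either kind. There, replicate 4 was low in Fos (-1.95 log2 units from the group mean) and Egr1 (-1.43) but high in Myc (0.67), and replicate 1 was high in Fos (1.44), Egr1 (1.04) and Atf3 (1.05) but low in Myc (-0.66).

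**Figure D4:**
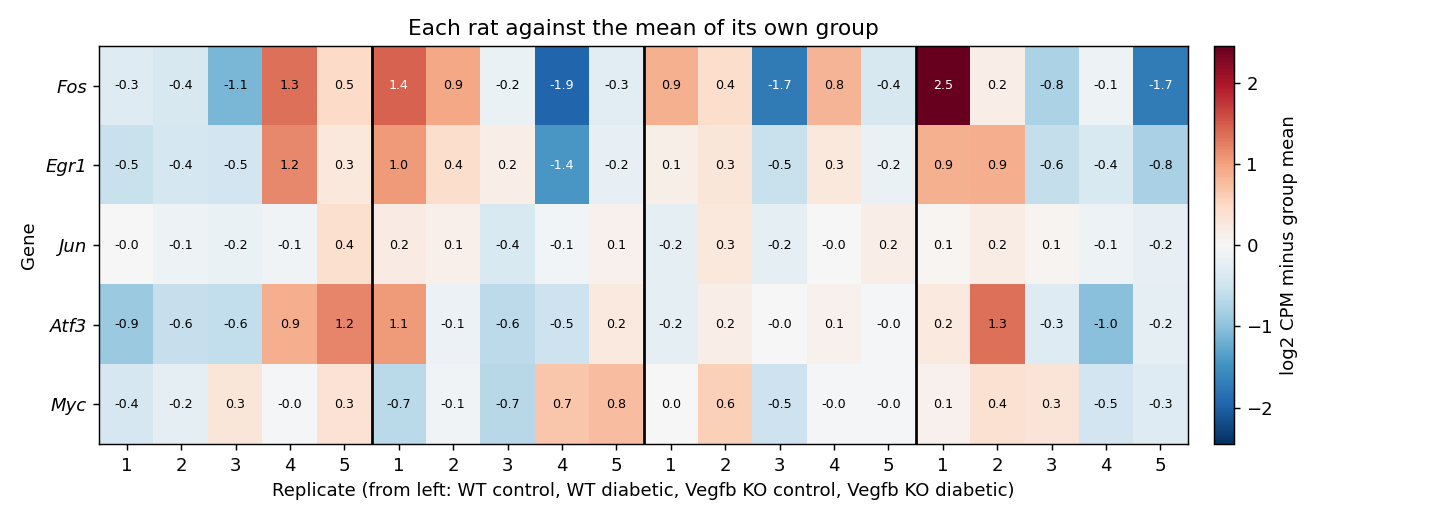
Log2 CPM of each gene (rows) in each rat (columns) minus the mean of the rat's group; numbers in the cells are these differences and black lines part the groups. Fos and Egr1 share their high and low rats, as in WT diabetic replicate 4 (-1.95 and -1.43), whereas Myc was at 0.67 in that rat.

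Correlations of these deviations were computed over the 20 rats for all 10 pairs of the 5 genes, with two-sided permutation tests (100000 permutations within groups) adjusted over the 10 pairs. Pearson's r passed for 3 of the 10 pairs, as did Spearman's rho. Fos and Egr1 gave r = 0.88 (permutation p = 1e-05, the smallest these permutations can give, adjusted p = 0.0001) and rho = 0.899 (permutation p = 2e-05, adjusted p = 0.0002). The deviations of both genes had the same sign in 19 of 20 rats. Without the 2 rats farthest from the median of Fos, r was 0.838. Without both libraries of unusual composition it was 0.883, and leaving out each library in turn gave 0.85 to 0.921. Among the 14292 other genes tested, Egr1 had the highest r with Fos, and Fos the highest with Egr1.

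Egr1 and Atf3 gave r = 0.709 (permutation p = 0.00271, adjusted p = 0.00903) and rho = 0.683 (permutation p = 0.00551, adjusted p = 0.0184), with the same sign in 16 of 20 rats. Without the 2 rats farthest from the median of Egr1, r was 0.693. Among all genes, Atf3 ranked 20 for Egr1 and Egr1 ranked 6 for Atf3. Jun and Atf3 gave r = 0.631 (permutation p = 0.00118, adjusted p = 0.0059) and rho = 0.635 (permutation p = 0.00105, adjusted p = 0.00525), with the same sign in 15 of 20 rats. Without the 2 rats farthest from the median of Jun, WT control replicate 5 and WT diabetic replicate 3, r was 0.461 (permutation p = 0.0207). Atf3 ranked 27 among all genes for Jun, and Jun ranked 22 for Atf3.

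The AP-1 partners Fos and Jun gave r = 0.38 (permutation p = 0.113, adjusted p = 0.175) and rho = 0.392 (permutation p = 0.114, adjusted p = 0.15), which did not pass. Myc did not pass with Fos (r = -0.07, permutation p = 0.809, adjusted p = 0.809) or with Egr1 (r = -0.11, permutation p = 0.723, adjusted p = 0.803). Its rho was -0.04 for Fos (permutation p = 0.885, adjusted p = 0.909) and 0.03 for Egr1 (permutation p = 0.909, adjusted p = 0.909). Without WT diabetic replicate 1, 5 of 10 pairs passed, the additional ones being Jun with Myc (r = 0.645, adjusted permutation p = 0.0229) and Atf3 with Myc (r = 0.478, adjusted permutation p = 0.0492). With all 20 rats these pairs were at r = 0.466 (adjusted permutation p = 0.126) and r = 0.246 (adjusted permutation p = 0.394). Over the alternatives the adjusted permutation p ranged from 0.0229 to 0.24 for the first and from 0.0492 to 0.694 for the second.

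**Figure D5:**
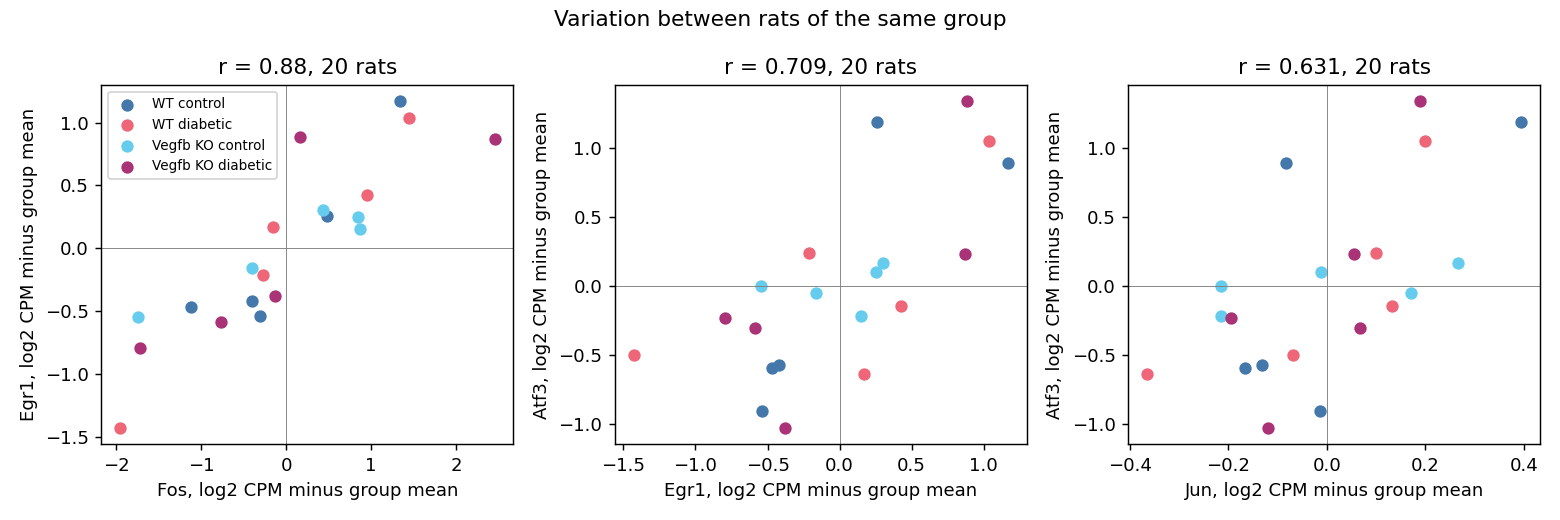
Deviations of log2 CPM from the group mean for the 3 pairs of genes that passed (1 point per rat, 20 rats, coloured by group). Fos and Egr1 deviated in the same direction in 19 of 20 rats, with r = 0.88.

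The genes most like the set were found from the mean of the 5 standardised deviations in each rat. Of the other genes tested, ENSRNOG00000010799 (r = 0.864) and ENSRNOG00000016950 (r = 0.86) had the highest Pearson correlation with it over the 20 rats. These values were picked as the highest of all genes and are a description without a test, and the table does not pair the IDs with names.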

How the data were processed

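The authors sequenced directional paired-end libraries, and the submitters' processing notes name mRatBN7.2, kallisto, edgeR and DESeq2, without versions. Each of the 20 deposited columns holds estimated counts by Ensembl gene ID, rounded here to whole numbers. Of the nonzero deposited values 0 were whole, and 61.2% of the low values lay within 0.1 of a whole number. Reads shared by similar genes may have been divided between them, and whether the values had been rescaled was not tested. Counting errors treat the rounded values as read counts and are approximate. Genes were filtered with filterByExpr by group, normalised by TMM and fitted with a robust quasi-likelihood model in edgeR 4.0.16 (R 4.3.3) with 4 group means. Log2 CPM used a prior count of 2. The alternatives, including DESeq2 1.42.0 and leaving out each library, are given in the closing section. The code was tested on simulated data. Figures were drawn with matplotlib 3.10.9.

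The genes named were the 6 of the set and, by a rule of highest correlation, the 2 other genes most like it. The members and lists were chosen with earlier results of these data known. The RefSeq table lists 47357 genes, and 0 of the Ensembl IDs could be matched in it, so the lists of further immediate early genes, their regulators and cell type markers were not run, and the tissue label was not checked against markers. With 5 genes present, 10 pairs were correlated in place of the 15 planned. In 40 pairs of libraries within groups the lowest chi-square per gene was 5.98, well above sampling noise, and all libraries were kept as separate samples. The counting errors given in percent leave out the spread between rats. The intervals of the log2 fold changes come from the edgeR fit and include that spread. At equal CPM the shallow libraries give the least precise values.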

Additional observations from a re-analysis of the deposited data

Results flagged for a closer look

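In 2 of the 20 sets of 5 values (5 genes in 4 groups), 1 rat lay far from the other 4. For normally distributed values chance flags about 1 in 20 groups, so 1 such set would be expected. The rule was applied to CPM on a linear scale, where a normal distribution was not tested. It was not applied to log2 CPM. Fos was at 30.6 CPM in Vegfb KO diabetic replicate 1, and the next value of that group was 6.18 CPM. The gap was 0.842 of the range of the group. That library had the lowest total, 7220469 counts, a Fos count of 153, and 25.5% of its counts on ENSRNOG00000065867. The part of these in the Fos value was not tested. Jun was at 101 CPM in WT control replicate 5, and the next value was 76.2 CPM, a gap of 0.768 of the range. Atf3 was also highest of its group in that rat, at 10.6 CPM.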

How the results depend on the processing

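Over all 7 contrasts, 961 of 1000 log2 fold changes of the 5 genes under an alternative kept their direction. Several alternatives were close to the main fit: unrounded counts gave Fos -0.2953 with diabetes in WT, against -0.2956. Others left out a library of a group outside the comparison. The share therefore says little about how stable a direction is. Myc averaged over genotypes passed throughout. The interaction called 0 genes in DESeq2, run on all 20 libraries, and 0 under every other alternative, all fitted in edgeR. Its unadjusted p was under 0.05 for 600 genes in the main edgeR fit, 557 with the replicate block and 864 without both unusual libraries. The causes of the changes below were not tested. With only the 10 libraries of a comparison, 0 immediate early genes were called with diabetes in WT (beside 1560 of 13871 genes) and 1 in Vegfb KO (beside 1112 of 13750). Between diabetic genotypes, 3 genes were called in such a fit in place of 6, and 67 were called by DESeq2 on all 20 libraries. For genotype averaged over treatments, 18 genes became 56 with DESeq2 (1 immediate early gene), 9 with the replicate block, 9 with counts thinned to the smallest total and 9 without both libraries of unusual composition.

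Log2 fold changes that turned, none of which passed, were as follows. With diabetes in Vegfb KO, Egr1 was 0.011 with DESeq2, and Fos -0.28 without both unusual libraries. Averaged over genotypes, Fos was -0.39 without both, and Atf3 -0.0040 without a filter and -0.029 with the replicate block. Between diabetic genotypes, Fos was 0.084 with DESeq2 and 0.092 thinned, and Egr1 0.043 thinned. By Spearman's rho, Egr1 and Myc were at 0.0316.

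Leaving out each library in turn gave these ranges. With diabetes in WT, 0 to 1 immediate early genes were called beside 1440 to 2285 genes, Fos ran from -0.73 to 0.21, Egr1 from -1.02 to -0.27, Jun from 0.14 to 0.30 and Atf3 from -0.63 to 0.0885. In Vegfb KO, 643 to 1244 genes were called (643 without Vegfb KO diabetic replicate 3), Fos ran from -0.27 to 1.00, Egr1 from -0.38 to 0.14 and Atf3 from -0.32 to 0.50. Averaged over genotypes, 1 to 2 immediate early genes were called beside 2045 to 2509 genes, Fos ran from -0.28 to 0.45, Egr1 from -0.55 to -0.16 and Atf3 from -0.30 to 0.19. Between control genotypes, Fos ran from -1.31 to -0.60, Egr1 from -0.90 to -0.32, Atf3 from -1.50 to -0.93 and Myc from -0.44 to -0.15. Between diabetic genotypes, 2 to 181 genes were called (181 without WT diabetic replicate 3), Fos ran from -1.09 to 0.30, Egr1 from -0.43 to 0.22, Atf3 from -1.34 to -0.38 and Myc from -0.59 to -0.22. For genotype averaged over treatments, 7 to 75 genes (75 without WT diabetic replicate 3) and 0 to 1 immediate early genes were called. The interaction ran from -0.036 to 0.92 for Atf3 and from -0.32 to 0.052 for Myc. Of the correlated pairs 3 to 5 passed, Fos with Myc ran from -0.213 to 0.133 and Egr1 with Myc from -0.202 to 0.137.

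Replicate numbers were not taken to pair the samples, since r did not exceed 0.1 in every pair of any comparison. Over 30 same-numbered pairs of libraries, r of their deviations from the group means was -0.257 to 0.264, over 0.1 in 10, and a library correlated best with its own number in 8. Of these 8, 4 were between WT control and Vegfb KO diabetic, groups not compared here, with r of 0.04 to 0.158. The replicate block gave 1785 genes called with diabetes in WT in place of 1876, and 1048 in place of 1121 in Vegfb KO. It changed no call of the 5 genes.

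Depth limits Fos, Atf3 and Myc most, with lowest counts of 24, 14 and 20. With 5 rats per group and an SD of 1.25 log2 units, the 95% intervals of Fos are wide, from -1.03 to 2.37 for diabetes in Vegfb KO hearts. Junb was not analysed here, and the cell types behind the RNA were not measured.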
